A study of Mus musculus with 36 samples.

Results

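Genes of the epithelial-mesenchymal transition were followed through the BMP4-driven primed to naïve transition (BiPNT) of mouse epiblast stem cells (EpiSCs). The 10 genes were chosen by name: the cadherins Cdh1 and Cdh2, the intermediate filament gene Vim, the transcription factor genes Snai1, Snai2, Zeb1, Zeb2, Twist1 and Twist2, and the matrix gene Fn1. All 10 were among the 50600 genes listed for the sorted Day 3 libraries and among the 29267 genes listed for the other libraries.

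In an epithelium, cells are held together by E-cadherin, the product of Cdh1, and rest on a basement membrane. During an epithelial-mesenchymal transition, transcription factors of the Snail, Zeb and Twist families repress Cdh1 and other junction genes, while N-cadherin (Cdh2), vimentin (Vim) and fibronectin (Fn1) typically increase and the cells become motile. The reverse, a mesenchymal-epithelial transition, accompanies the early steps of fibroblast reprogramming, and epiblast cells pass through the forward transition when they leave the primitive streak at gastrulation.

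Bulk RNA-seq was available for 11 libraries from 3 experiments. In the first, cells at Day 3 of BiPNT were sorted on the surface receptor c-Kit into c-Kit+ and c-Kit- cells, with 2 libraries of each. They had been held for 3 days in stage 1 medium, which is iCD1 medium (vitamin C, bFGF, LiCl, LIF and CHIR99021) with BMP4, the EZH2 inhibitor EPZ6438 and a DOT1L inhibitor, EPZ5676 or SGC0946. In the second, 3 libraries of EpiSCs kept in N2B27 with Activin A, bFGF and XAV939 were set against 2 libraries of BV+SC+ cells. These are Day 6 cells sorted for both the Prdm1/Blimp1-mVenus and the Stella-ECFP reporter after stage 1 medium with EPZ5676 and a second medium. The labels describe that medium, for both libraries alike, as one with the inhibitors PD0325901 and CHIR99021. The third has 1 library each of unsorted Day 3 cells of BiPNT with and without the DOT1L inhibitor SGC0946. All groups therefore come from EpiSCs, and every group but the EpiSCs had passed through BMP4. The derived line carries a ΔPE-Oct4-GFP transgene and the BV+SC+ cells come from an EpiSC line made from reporter ES cells. Which line gave the EpiSC libraries is not stated. The descriptions of the BV+SC+ libraries, however, hold the codes 2iJi (replicate 1) and GK15 (replicate 2), and the study names GK15 as another medium tried in the second stage. The study also describes adding a JAK inhibitor in the second stage, and whether 2iJi refers to this is not stated. The BV+SC+ libraries may therefore come from different media, and medium and replicate cannot be told apart. They are used below as 2 libraries of 1 group, as the titles number them.

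Each library held between 1726038 and 18099059 expected counts, with the sorted cells the shallowest (at most 1841442) and the BV+SC+ cells the deepest (at least 14778809). Low genes were therefore measured least precisely in the sorted cells, where 3 counts correspond to 1.63 to 1.74 CPM, a count scaled to the total of its library. The sort and the reporters were visible in the RNA. Kit was at 96.0 to 99.6 TPM, a level scaled to gene length and library total, in c-Kit+ cells and 3.24 to 4.81 TPM in c-Kit- cells, and Dppa3 (Stella) was at 1162 to 1202 TPM in BV+SC+ cells and listed at 0 in all 3 EpiSC libraries. The BV+SC+ replicates differed more than other replicates, with a chi-square of 45.3 per degree of freedom against 2.01 to 4.46 for the other pairs, at greater depth. Neither the labels nor the methods say whether replicates came from separate cultures. The p-values below therefore measure the spread between these libraries, which may be technical. Between the BV+SC+ libraries the spread may also hold a difference of medium.

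The first question was how the genes stood before, during and after BMP4 treatment in the 7 libraries that share a gene list. Day 3 is represented by 1 library without and 1 with SGC0946, so these differences have no replicate check and no test. Differences are given as log2 of mean TPM + 1, for genes with over 1 TPM in at least 1 library compared, and all 10 genes met this. Both Day 3 libraries had less Cdh1 and more of the other 9 genes than any EpiSC library. Most of these values were back near the EpiSC level or below it in BV+SC+ cells, except for Fn1. The Day 3 libraries belong to another experiment than the EpiSC and BV+SC+ libraries, so stage and experiment, and any difference of cell line, cannot be told apart in any of these contrasts. The BV+SC+ cells had also been sorted and had received EPZ5676, so sort and inhibitor cannot be told apart from stage in that step.

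Cdh1 was at 71.4, 88.2 and 103 TPM in EpiSCs, at 12.3 TPM in Day 3 cells without SGC0946 and 22.9 TPM with it, and at 67.5 and 70.7 TPM in BV+SC+ cells. The Day 3 values lay below every other library of the set, and the BV+SC+ values lay just below the lowest EpiSC value. Against EpiSCs the difference was -2.73 without and -1.89 with SGC0946, and from Day 3 with SGC0946 to BV+SC+ cells it was 1.55. Cdh2, whose product often replaces E-cadherin in mesenchymal cells, was at 31.4, 31.8 and 42.2 TPM in EpiSCs, at 82.4 and 55.4 TPM in Day 3 cells without and with SGC0946, and at 5.08 and 11.2 TPM in BV+SC+ cells. The 3 stages did not overlap for Cdh2, with Day 3 highest and Day 6 lowest. Its difference from EpiSCs to Day 3 was 1.21 without and 0.64 with SGC0946, and from Day 3 with SGC0946 to Day 6 it was -2.63.

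The balance of the cadherins was taken as log2 of Cdh1 TPM + 1 over Cdh2 TPM + 1. It was 0.74, 1.46 and 1.66 in EpiSCs, -2.65 and -1.24 in Day 3 cells without and with SGC0946, and 2.49 and 3.56 in BV+SC+ cells. Day 3 cells were thus the only ones of the 7 libraries with more Cdh2 than Cdh1, and BV+SC+ cells had the largest excess of Cdh1.

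**Figure D1:**
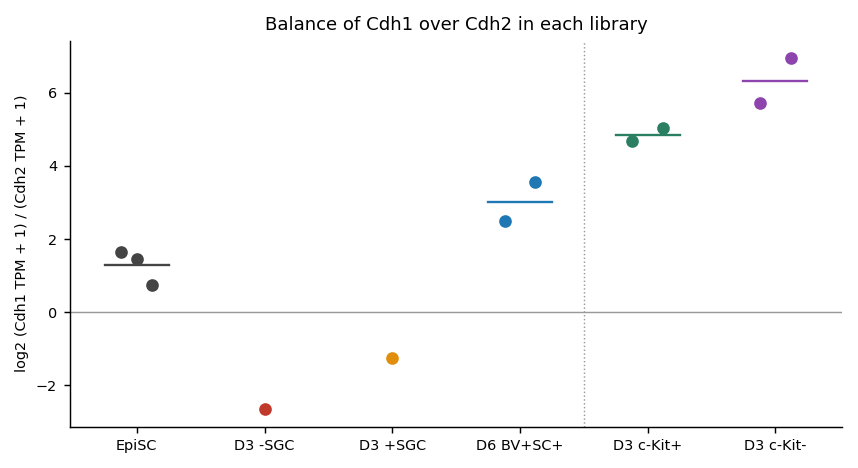
Balance of Cdh1 over Cdh2, as log2 of (Cdh1 TPM + 1) over (Cdh2 TPM + 1), on the vertical axis for each of the 11 libraries. Points are libraries, horizontal bars are group means, and the dotted line separates the sorted Day 3 libraries, which have another gene list. The unsorted Day 3 libraries lie below 0, at -2.65 and -1.24, and all others above it.

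Vim encodes vimentin, the intermediate filament of mesenchymal cells. It was at 381, 393 and 442 TPM in EpiSCs, at 1589 and 1506 TPM in Day 3 cells without and with SGC0946, and at 250 and 96.2 TPM in BV+SC+ replicates 1 and 2. Day 3 was thus 1.97 and 1.89 above EpiSCs on the log2 scale, and Day 6 was 3.11 below Day 3 with SGC0946. The BV+SC+ libraries were below all EpiSC libraries but differed from each other by more than the EpiSCs did.

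Snai1 and Snai2 encode the zinc-finger repressors Snail and Slug. Snai1 had 5, 0 and 2 counts in EpiSCs, or 2.07, 0 and 1.05 TPM. It was at 64.8 and 74.6 TPM in Day 3 cells without and with SGC0946, and at 2.36 and 2.77 TPM in BV+SC+ cells. In CPM, with the EpiSC libraries pooled, the Day 3 library with SGC0946 had 71.1 times as much Snai1 (exact 95% interval 34.0 to 178), and BV+SC+ cells had 27.5-fold less than that library (21.1 to 36.3). Here and below such intervals cover counting error only, with the libraries of a group summed. Snai2 was at 1.67, 2.02 and 2.88 TPM in EpiSCs, at 65.8 and 50.6 TPM in Day 3 cells without and with SGC0946, and at 1.75 and 0.78 TPM in BV+SC+ cells. Both genes were thus at 50.6 to 74.6 TPM at Day 3 and at no more than 2.88 TPM before and after it. The EpiSC values rest on 0 to 9 counts, while the deeper BV+SC+ libraries had 29 and 41 counts of Snai1 and 28 and 15 of Snai2.

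Zeb1 and Zeb2, a pair of related zinc-finger and homeodomain repressors, differed in their course. Zeb1 was at 10.4, 12.2 and 12.6 TPM in EpiSCs, at 22.2 and 17.2 TPM in Day 3 cells without and with SGC0946, and at 9.99 and 11.6 TPM in BV+SC+ cells. Its Day 3 difference was 0.87 without and 0.52 with SGC0946, under 2-fold in both. Zeb2 was at 0.87, 0.92 and 0.98 TPM in EpiSCs, at 11.8 and 9.52 TPM at Day 3 without and with SGC0946, and at 2.76 and 0.15 TPM in BV+SC+ replicates 1 and 2. Zeb2 was therefore 2.73 and 2.45 above EpiSCs at Day 3, and the BV+SC+ replicates lay on either side of the EpiSC values.

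Twist1 and Twist2 are related basic helix-loop-helix factors. Twist1 was at 1.05, 3.47 and 4.58 TPM in EpiSCs, at 25.3 and 40.1 TPM at Day 3 without and with SGC0946, and at 0.82 and 0.27 TPM in BV+SC+ cells. Twist2 had 1, 0 and 4 counts in EpiSCs, was at 27.8 and 26.95 TPM at Day 3 without and with SGC0946, and had no count in either BV+SC+ library. The stages did not overlap for Twist1. For Twist2, with 3 counts as the floor of a library, BV+SC+ cells had at least 84.1-fold less in CPM than Day 3 cells with SGC0946. The antisense gene Gm29100 covers 1468 bases of Twist2, and without knowledge of the strand setting their reads cannot be told apart, though Gm29100 itself had at most 9.43 counts in a library of this set. Zeb1 shares 198 bases in antisense with Gm10125, which had up to 117 counts in a library of this set, beside 93 to 563 counts of Zeb1. Zeb2 shares 183 bases with Zeb2os, which was listed at 0 in all of them.

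Fn1 encodes fibronectin, a matrix protein that is also made by embryonic and extraembryonic endoderm and mesoderm. It was at 64.3, 68.4 and 68.7 TPM in EpiSCs, at 372 and 465 TPM at Day 3 without and with SGC0946, and at 618 and 415 TPM in BV+SC+ cells. It was 2.45 and 2.77 above EpiSCs at Day 3, and 0.15 above Day 3 with SGC0946 at Day 6, where one replicate lay above that library and the other below it. Fn1 shares 198 bases in antisense with Apol7d, which had at most 15.0 counts.

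**Figure D2:**
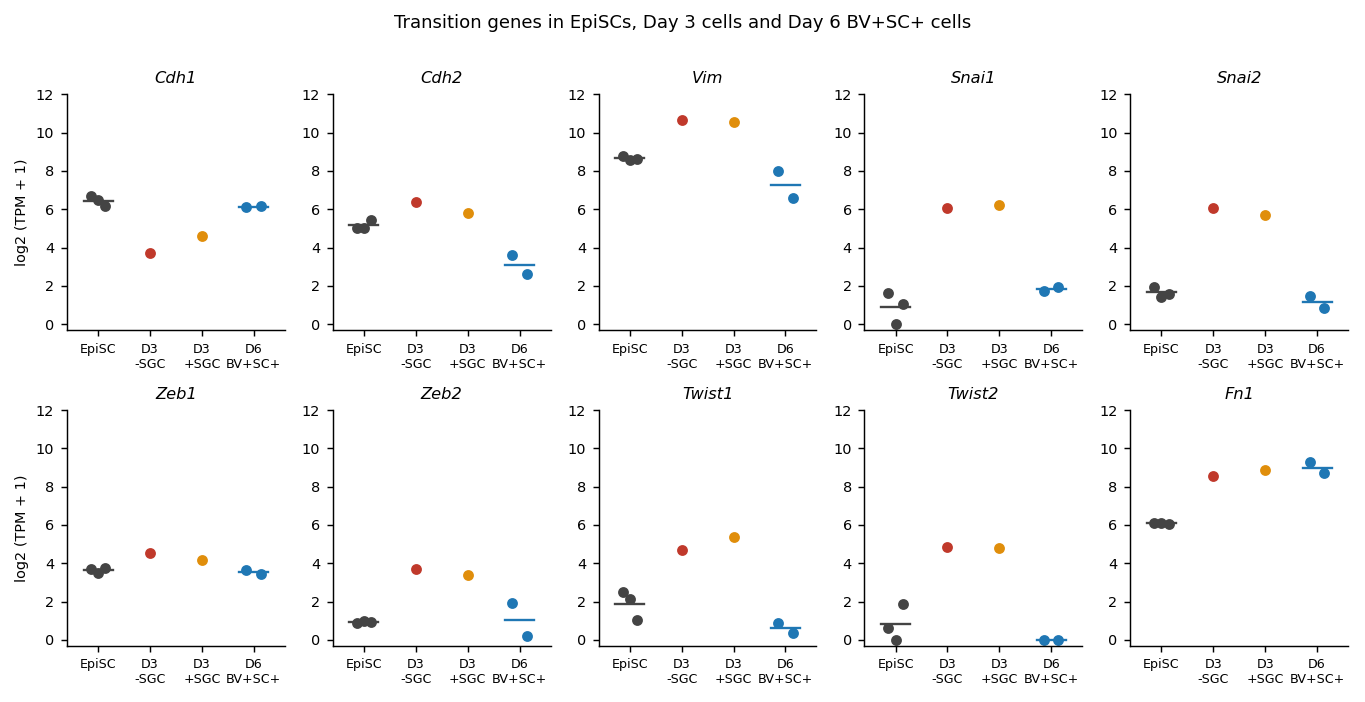
Level of each gene as log2 (TPM + 1), on the vertical axis, in EpiSCs, Day 3 cells (D3) without and with SGC0946, and Day 6 (D6) BV+SC+ cells. Points are libraries and bars are means of groups with more than 1 library. Cdh1 dips and 8 genes peak at Day 3, while Fn1 stays high at Day 6, at 415 and 618 TPM.

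Counted over the list, 9 of the 10 genes differed over 2-fold between EpiSCs and Day 3 without SGC0946, of which 8 were higher and 1, Cdh1, lower. Over all 14586 genes compared, 26.7% passed the same 2-fold limit. Against Day 3 with SGC0946 it was 8 genes, 7 higher and 1 lower, beside 24.9% of 14698 genes, because Cdh2 stayed under 2-fold. From Day 3 with SGC0946 to BV+SC+ cells, 8 of the 10 differed, 7 lower and 1 (Cdh1) higher, beside 36.6% of 14942 genes. The median over the 10 genes was 2.58, 2.61 and -2.87 in these 3 contrasts, and over all genes it was 0.10, 0.11 and -0.12. The first pair share the EpiSC libraries and the last pair share the library with SGC0946, so the contrasts are not independent. The counts and medians of the 10 genes are also partly set by the filter. Zeb2 (0.87 to 0.98 TPM in EpiSCs) passed 1 TPM only through Day 3 in the first pair. Twist1 (0.27 to 0.82 TPM in BV+SC+ cells) and Twist2 (0 TPM) did so in the last contrast. Such genes could hardly count in another direction, and a stricter filter, given at the end, left fewer genes past 2-fold. Rescaling the TPM by TMM factors moved the median of all genes by up to 0.12 and turned no direction of a gene that passed 2-fold.

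Across the 7 libraries, Cdh1 ran against the other 9 genes, with Pearson's r of log2 (TPM + 1) between -0.94 and -0.55. Cdh2, Vim and the 6 factors ran together, with r of 0.51 to 0.96 over their 28 pairs. Fn1 was left out of these pairs, and its r with them ran from -0.28 (Cdh2) to 0.61 (Snai1), with 0.06 for Vim. These are descriptions over 7 libraries in 3 stages that differ in depth, with the same Day 3 libraries weighing in each. The protein-coding genes most like Cdh1 among 10315 with a mean of at least 5 TPM were Anp32b (r = 0.996), Tbl2 (0.993) and Apela (0.987), and those most like Cdh2 were Tmem39b (0.999), Clcn4 (0.998) and Zfp629 (0.996).

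Promoters were read for members that were higher together at Day 3, because Snail and Zeb proteins bind the E-box CACCTG and can act on one another's genes. RefSeq starts on GRCm38.p6 were used for 5 of the 10 genes: Vim, Snai1, Zeb2, Twist1 and Twist2. Cdh1, Cdh2, Snai2, Zeb1 and Fn1 were not analysed here. The 250 bases before the start are shown for the 4 genes with a single listed start, 5′ to 3′ on the strand of the gene, which is the plus strand for all 4. They lie at chr2:167537945-167538194 (Snai1), chr2:13574061-13574310 (Vim), chr12:33957421-33957670 (Twist1) and chr1:91801211-91801460 (Twist2). Capitals mark CACCTG or its reverse complement CAGGTG.
Snai1: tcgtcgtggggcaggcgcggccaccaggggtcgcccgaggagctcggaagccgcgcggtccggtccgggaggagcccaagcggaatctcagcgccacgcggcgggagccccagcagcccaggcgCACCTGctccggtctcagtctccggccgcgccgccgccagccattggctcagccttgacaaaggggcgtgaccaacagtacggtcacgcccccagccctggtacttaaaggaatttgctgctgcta
Vim: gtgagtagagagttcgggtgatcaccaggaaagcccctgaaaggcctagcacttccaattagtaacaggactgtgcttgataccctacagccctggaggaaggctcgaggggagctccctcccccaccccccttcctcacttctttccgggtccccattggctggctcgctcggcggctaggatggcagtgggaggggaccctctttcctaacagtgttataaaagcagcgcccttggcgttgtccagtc
Twist1: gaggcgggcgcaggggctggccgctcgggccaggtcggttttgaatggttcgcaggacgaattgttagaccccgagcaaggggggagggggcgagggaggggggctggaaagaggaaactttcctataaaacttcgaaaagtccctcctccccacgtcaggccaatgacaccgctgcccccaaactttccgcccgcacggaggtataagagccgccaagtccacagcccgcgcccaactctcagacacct
Twist2: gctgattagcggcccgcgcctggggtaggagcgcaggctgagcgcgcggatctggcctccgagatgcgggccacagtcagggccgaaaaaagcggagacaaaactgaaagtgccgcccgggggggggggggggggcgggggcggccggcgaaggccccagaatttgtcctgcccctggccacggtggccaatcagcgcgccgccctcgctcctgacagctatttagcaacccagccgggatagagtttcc
Only Snai1 held the motif in this window, once, with its first base at -126 from the start. The 4 listed starts of Zeb2 had no match either. Of all 32851 promoters in the table, 17.22% held the motif in the same 250 bases, beside 1 of the 8 promoters read here. A match is a description of the sequence and not of binding.

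The wider programme was described with 22 epithelial and 20 mesenchymal genes that are not among the 10. Of 18 mesenchymal genes with over 1 TPM, 16 were over 2-fold higher and 1 lower at Day 3 without SGC0946 than in EpiSCs, with a median of 1.70. With SGC0946 it was 13 higher and 1 lower, with a median of 1.52. Over all genes 26.7% and 24.9% passed 2-fold in either direction without and with SGC0946. These counts are partly set by the filter. Genes near 0 in EpiSCs that passed 1 TPM only through Day 3 could hardly count as anything but higher. An example is Postn, listed at 0 in EpiSCs and at 1.10 and 1.38 TPM at Day 3. Col1a1, a fibrillar collagen chain, was at 0.3 to 3.9 TPM in EpiSCs, at 224 and 210 TPM at Day 3 without and with SGC0946 and at 1.0 to 1.8 TPM in BV+SC+ cells. The transcription factor gene Foxc2 was listed at 0 in EpiSCs and at 35.2 and 17.3 TPM at Day 3. The collagen gene Col1a2 differed by 2.12 and 2.78 and the matrix metalloprotease gene Mmp2 by 2.10 and 1.57, without and with SGC0946. Tagln, a smooth muscle actin-binding protein, was the exception, lower by 2.04 on the log2 scale with SGC0946 than in EpiSCs. By BV+SC+ cells 13 of 18 were lower and none higher than at Day 3 with SGC0946, with a median of -2.42. Over all genes 36.6% passed 2-fold in either direction in this contrast, and the same limit of the filter holds.

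The epithelial genes did not mirror Cdh1. At Day 3 without SGC0946, 7 of 21 were over 2-fold higher than in EpiSCs and 5 lower, with a median of 0.52, and with SGC0946 it was 9 and 4 of 22, with a median of 0.53. The genes of simple-epithelium keratins were the highest, with Krt8 4.48 and Krt18 4.504 above EpiSCs without SGC0946, and Dsp, a desmosome component, was 3.61 above. Epcam, an adhesion molecule of pluripotent and epithelial cells, had the opposite course, as had Cldn6, Crb3 and Grhl2 on their way to Day 3. Epcam was at 192 to 213 TPM in EpiSCs, 26.2 and 55.9 TPM at Day 3 without and with SGC0946, and 181 and 252 TPM in BV+SC+ cells. Esrp1, an epithelial splicing factor gene, was at 17.9 to 26.5 TPM in EpiSCs and 3.59 and 17.7 TPM at Day 3, with the lower value in the library without SGC0946.

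**Figure D3:**
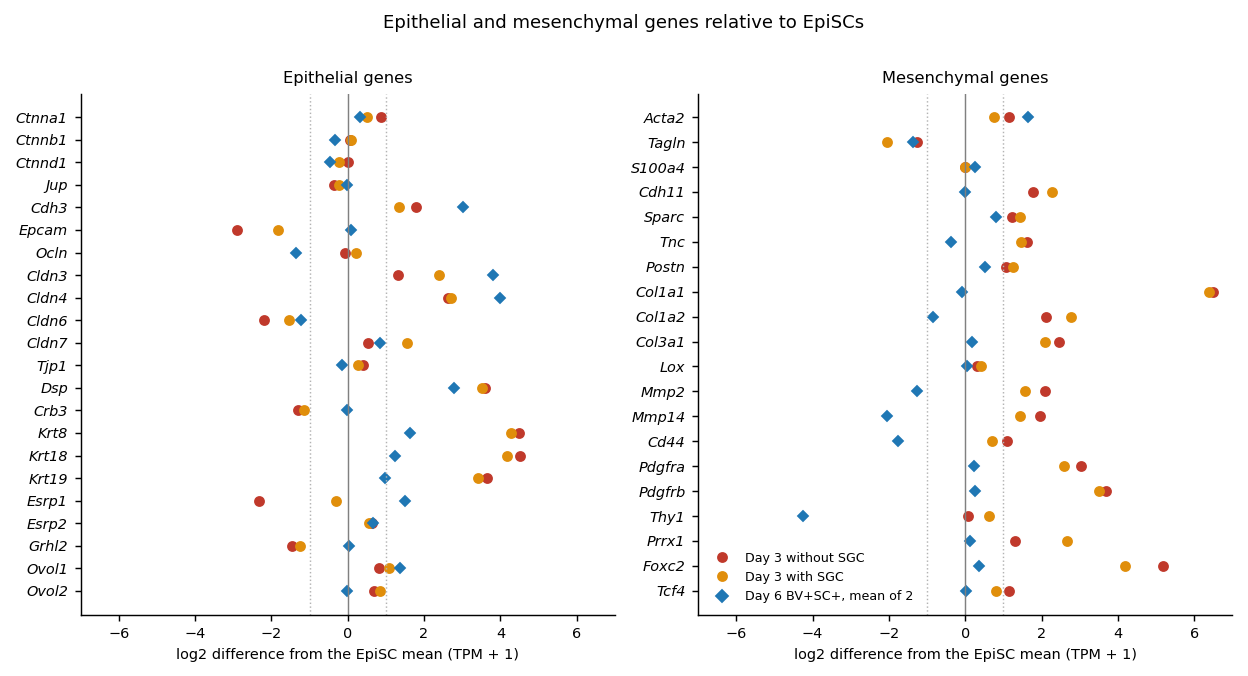
Log2 difference from the EpiSC mean (TPM + 1) on the horizontal axis for 22 epithelial genes (left) and 20 mesenchymal genes (right). Circles are the single Day 3 libraries without and with SGC0946, diamonds are the mean of 2 BV+SC+ libraries, and dotted lines mark 2-fold. Most mesenchymal circles lie to the right of 0, up to Col1a1 at 6.48, while the epithelial genes lie on both sides.

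In bulk cells, a change in the share of a cell type cannot be told apart from a change of RNA per cell. Genes of the trophoblast, which is itself an epithelium that makes the keratins of Krt8 and Krt18, moved with the Day 3 libraries. All 8 trophoblast markers with over 1 TPM, out of 10, were over 2-fold higher than in EpiSCs in both Day 3 libraries. Beside this and the marker counts below stand 26.7% and 24.9% of all genes past 2-fold in either direction, without and with SGC0946. Markers near 0 in EpiSCs passed the filter of 1 TPM through Day 3 and could hardly count as anything but higher. Elf5 and Krt7 stayed under 1 TPM in both Day 3 libraries. The summed level of the 10 was 163 to 186 TPM in EpiSCs, 4435 and 4369 TPM at Day 3 and 122 to 373 TPM in BV+SC+ cells. Phlda2 (1921 and 2361 TPM without and with SGC0946) and Peg10 (1538 and 1274 TPM) made up most of the Day 3 sums. Cdx2 was listed at 0 in EpiSCs. Of 8 fibroblast markers, of which 6 are also in the mesenchymal list, the sum was 23.4 to 39.5 TPM in EpiSCs, 293 and 302 TPM at Day 3 and 4.63 to 5.74 TPM in BV+SC+ cells, with Dcn at no more than 2.0 TPM and Lum at no more than 1.0 TPM in any of these libraries. Markers of the primitive streak summed to 8.34 to 20.3 TPM in EpiSCs and to 829 and 621 TPM at Day 3, of which Msx1 and Msx2 made up most. Of 5 such markers with over 1 TPM, out of 7, 2 were over 2-fold higher and 1, Eomes, lower than in EpiSCs without SGC0946, and 3 higher and 1, again Eomes, lower with it. Eomes was at 5.04 to 7.91 TPM in EpiSCs and at 0.27 and 2.24 TPM at Day 3 without and with SGC0946, and T was at 2.64 and 16.9 TPM at Day 3. Of 8 pluripotency markers with over 1 TPM, out of 9, 2 were over 2-fold higher and 4 lower than in EpiSCs without SGC0946. With SGC0946, 4 were higher and 2 lower. Pou5f1 had a mean of 2065 TPM in EpiSCs and was at 67.3 and 549 TPM at Day 3 without and with SGC0946. The part of any of these cell types in the Day 3 values was not tested.

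The 10 TGF-β genes encode ligands, receptors and SMADs of the best known inducer of the transition and the SMAD co-repressor Skil. Of these 3 and 4 were over 2-fold higher at Day 3 without and with SGC0946 and none lower. Over all genes 2447 of 14586 and 2516 of 14698 were over 2-fold higher, and 26.7% and 24.9% passed in either direction. The list was not tested as a set. The ligand gene Tgfb2 differed most, with a mean of 0.32 TPM in EpiSCs, 78.4 and 69.2 TPM at Day 3 and 2.01 TPM in BV+SC+ cells. Of the fibronectin receptor subunits, the αv integrin gene Itgav was at 15.6 to 17.7 TPM in EpiSCs, 103 and 86.0 TPM at Day 3 and 23.4 to 28.4 TPM in BV+SC+ cells. From Day 3 with SGC0946 to Day 6, 3 of 5 receptor genes were over 2-fold lower while Fn1 was not, beside 36.6% of all genes past 2-fold in either direction.

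Because EpiSCs and BV+SC+ cells have more than 1 library each, the net difference between the start and Day 6 was tested with the edgeR quasi-likelihood test on expected counts. Genes were called at an unadjusted p under 0.05 with a fold over 2, and adjusted p-values (Benjamini-Hochberg over all genes tested) are given beside. Of the 10 genes 6 passed the filter on low counts. Of these 3 were called, with Fn1 higher and Cdh2 and Vim lower in BV+SC+ cells, beside 35.0% of 11792 genes. The median log2 fold change was -0.25 over the 6 genes and 0.05 over all.

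Fn1 rose from 214 ± 2.96 (SD, n = 3) normalised CPM in EpiSCs to 1783 ± 551 (n = 2) in BV+SC+ cells, a log2 fold change of 3.06 ± 0.17 (SE, adjusted p = 1.15e-05). Cdh2 fell from 80.8 ± 12.4 to 19.2 ± 9.96 normalised CPM, with a log2 fold change of -2.07 ± 0.32 (adjusted p = 0.00109). Neither gene overlapped between the groups. The size of the Cdh2 difference depended on the BV+SC+ library, at -2.72 without replicate 1 and -1.62 without replicate 2, and it was called in both. Vim fell from 269 ± 39.0 to 126 ± 68.4 normalised CPM (-1.10 ± 0.31, adjusted p = 0.0171). The Vim call rests on single libraries, since the log2 fold change was -0.63 without BV+SC+ replicate 2 and -0.97 without EpiSC replicate 1, both under 2-fold, and -1.79 without BV+SC+ replicate 1.

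Cdh1 did not pass, at 208 ± 40.0 normalised CPM in EpiSCs and 168 ± 4.70 in BV+SC+ cells (log2 fold change -0.31 ± 0.16, adjusted p = 0.141). Zeb1 was at 36.6 ± 3.36 and 34.4 ± 3.42 normalised CPM (-0.09 ± 0.17, adjusted p = 0.686). Zeb2 was at 2.98 ± 0.32 and 2.64 ± 3.09 normalised CPM (-0.19 ± 0.87, adjusted p = 0.869), and its direction turned without BV+SC+ replicate 2 (0.70). In normalised CPM these 3 genes overlapped between the groups. Snai1, Snai2, Twist1 and Twist2 were left out by the filter. With no filter, Twist1 (-2.38, adjusted p = 0.0345) and Twist2 (-5.35, adjusted p = 0.0468) were called, from 2 to 11 and 0 to 4 counts in EpiSCs and from 4 to 10 and 0 counts in BV+SC+ cells. Twist1 entered the test when either BV+SC+ replicate or EpiSC replicate 3 was left out, through its higher EpiSC values, and its calls there are therefore not read as support.

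The cadherin balance was 1.74 higher in BV+SC+ cells (3.02 ± 0.76, SD, n = 2) than in EpiSCs (1.29 ± 0.48, n = 3), without overlap. The exact two-sided permutation test gave p = 0.1, the smallest that 2 against 3 libraries allow.

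Among the mesenchymal genes, 5 of 10 tested fell and none rose, with a median of -1.22. Beside this and the epithelial counts below stand the 35.0% of all genes that were called. Thy1, a surface glycoprotein of mesenchymal and other cells, fell from a mean of 23.3 to 0.28 TPM (log2 fold change -6.24, adjusted p = 3.81e-05), and the protease gene Mmp14 fell from 37.3 to 8.21 TPM (-2.12, adjusted p = 0.000936). The other 3 were Cd44, Mmp2 and Col1a2, of which Col1a2 had an adjusted p of 0.0557. Of 18 epithelial genes tested 7 rose and 2, Ocln and Cldn6, fell, with a median of 0.57. The claudin genes Cldn4 (5.16, adjusted p = 4.91e-05) and Cldn3 (4.54, adjusted p = 0.000244), Cdh3, or P-cadherin (3.28, adjusted p = 0.00066), and Dsp (3.22, adjusted p = 0.000111) changed most. Of the fibronectin receptors, Itgb3 rose (6.29, adjusted p = 3.19e-05) and Itga5 fell (-1.87, adjusted p = 4.84e-05). Several of these genes were near the floor in 1 of the groups. Cldn4, Cldn3 and Itgb3 had means of 0.81, 1.37 and 0.213 TPM in EpiSCs, and Thy1 had 0.28 TPM in BV+SC+ cells. Such genes may have passed the filter only through the group where they are high, so their calls are not read as support. Smad7, an inhibitor of TGF-β signalling, fell by 1.82 on the log2 scale (adjusted p = 0.000787). The BV+SC+ replicates were apart in several of these genes, with Cdh3 at 31.6 and 95.2 TPM and Esrp1 at 18.6 and 109 TPM in replicates 1 and 2.

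The next comparison was between c-Kit+ and c-Kit- cells of Day 3, which the study separated as cells on and off the path to naïve pluripotency. Of the 10 genes 5 passed the filter, and 2 were called, with Fn1 higher and Snai1 lower in c-Kit+ cells. Over all 11018 genes tested 24.4% were called. The median log2 fold change was 0.26 over the 5 genes and 0.03 over all.

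Snai1 was at 17.9 and 24.6 TPM in c-Kit+ cells and 56.1 and 61.0 TPM in c-Kit- cells. It was lower in c-Kit+ cells by a log2 fold change of -1.31 ± 0.24 (SE, adjusted p = 0.00224, edgeR), from 47.8 ± 3.32 to 19.1 ± 4.46 normalised CPM (SD, n = 2 each). Fn1 was at 283 and 294 TPM in c-Kit+ cells and 140 and 126 TPM in c-Kit- cells, and was higher in c-Kit+ cells by 1.23 ± 0.09 (adjusted p = 9.68e-06), with 1064 ± 77.5 and 454 ± 22.3 normalised CPM. The libraries of the groups did not overlap for either gene, and both calls held with each library left out in turn.

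Cdh1 was at 208 and 187 TPM in c-Kit+ cells and 333 and 310 TPM in c-Kit- cells. It was lower in c-Kit+ cells by a log2 fold change of -0.57 ± 0.09 (adjusted p = 0.00086), without overlap, but under the 2-fold limit. Cdh2 was at 7.21 and 4.69 TPM in c-Kit+ cells and 5.33 and 1.53 TPM in c-Kit- cells, from 28 and 21 against 21 and 7 counts. Its difference, 0.87 ± 0.50 (adjusted p = 0.191), did not pass, and ranged from 0.27 without c-Kit- replicate 2 to 1.83 without c-Kit- replicate 1. Of the 4 fits with a library left out it was called only in the latter, against a single c-Kit- library of 7 counts. Vim was at 83.6 and 51.0 TPM in c-Kit+ cells and 78.8 and 57.8 TPM in c-Kit- cells, which overlapped (0.26 ± 0.28, adjusted p = 0.488), and its direction turned without c-Kit- replicate 2 (-0.18).

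The other factors were near the detection limit in the sorted cells. Snai2 had 1 or 2 counts in every library. Zeb1 had 8 and 5 counts in c-Kit+ cells and 2 and 6 in c-Kit- cells. Zeb2 had 3 and 0 against 3 and 5 counts, and Twist1 had 5 and 2 against 7 and 2. The filter left these 4 genes out of the main test, and at such counts a small difference could not be detected. Twist2 had 3 and 2 counts in c-Kit+ cells and 19.7 and 4 in c-Kit- cells. With no filter it was called by the unadjusted threshold (-2.17, adjusted p = 0.0653). It also passed the filter and was called when c-Kit- replicate 2 was left out, but then against the 1 high c-Kit- library, so that call is not read as support. With either c-Kit+ replicate left out it passed the filter and was not called.

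The cadherin balance was 4.67 and 5.05 in c-Kit+ cells and 5.72 and 6.94 in c-Kit- cells. The difference of -1.47 between the means (4.86 ± 0.27 and 6.33 ± 0.86, SD, n = 2 each) had an exact two-sided permutation p of 0.333, the smallest possible with 2 against 2 libraries.

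**Figure D4:**
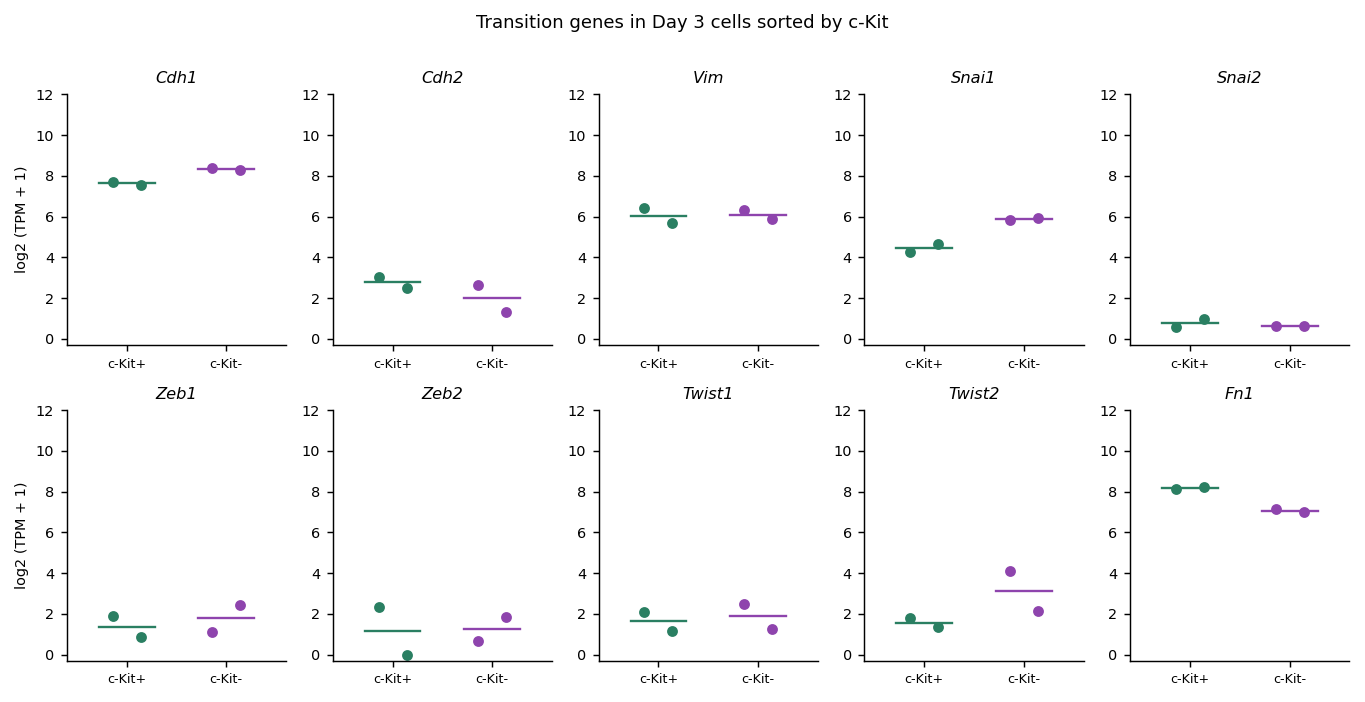
Level of each gene as log2 (TPM + 1), on the vertical axis, in c-Kit+ and c-Kit- cells of Day 3. Points are libraries and bars are means of 2. Snai1 and Cdh1 are lower and Fn1 higher in both c-Kit+ libraries, while Snai2, Zeb1, Zeb2 and Twist1 lie near the bottom of the scale in all 4.

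Among the genes tested, both wider lists were on balance lower in c-Kit+ cells. Of 10 mesenchymal genes tested, out of 20, 9 fell and none rose relative to c-Kit- cells, with a median of -1.91. Examples are the hyaluronan receptor gene Cd44 (-3.58, adjusted p = 5.03e-05), Pdgfrb, a receptor of mural and mesenchymal cells (-2.25, adjusted p = 5.31e-05), and Col1a1 (-1.58, adjusted p = 0.00122). Over all genes 24.4% were called. Genes low in c-Kit+ cells may have passed the filter only through c-Kit- cells and could hardly be called anything but lower. Cd44, for example, had means of 3.2 and 38.3 TPM in c-Kit+ and c-Kit- cells. The mesenchymal count is therefore not read as support. Of 22 epithelial genes 7 fell and 2, Cldn6 and Esrp1, rose, with a median of -0.41. The keratin genes Krt19 (-3.31, adjusted p = 0.00021), Krt18 (-2.45, adjusted p = 1.23e-06) and Krt8 (-2.22, adjusted p = 1.76e-06) led, with Cldn4 (-2.17, adjusted p = 1.67e-05). Both fibronectin receptor genes called, Itga5 (-2.02, adjusted p = 4.78e-06) and Itgb3 (-1.83, adjusted p = 0.000356), were also lower in c-Kit+ cells, where Fn1 was higher. Of the TGF-β genes 3 of 10 fell, a share near the 24.4% of all genes called, with Tgfb1 (-2.22, adjusted p = 4.97e-05), Tgfb3 (-2.08, adjusted p = 0.00753) and Smad3 (-1.12, adjusted p = 0.000541).

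The markers of other cell types moved with the sort. Of 9 trophoblast markers tested 7 were lower and 1, Cdx2, higher in c-Kit+ cells, and their sum was 2986 to 3408 TPM in c-Kit+ cells and 13060 to 13980 TPM in c-Kit- cells. Of 8 fibroblast markers 4 were tested and all 4 were lower, with sums of 49.0 to 60.5 and 163 to 189 TPM, while Lum was at no more than 0.9 TPM and Dcn at no more than 0.6 TPM. Primitive streak markers went the other way, with 3 of 4 higher in c-Kit+ cells and T at a mean of 169 against 0.27 TPM. So did 6 of 8 pluripotency markers and 3 of 4 primordial germ cell markers tested, with none lower. Beside these counts stand the 24.4% of all genes called. Markers near 0 in 1 group, such as T and Krt7 (0.38 against 44.0 TPM), may have passed the filter only through the other group. Such calls are not read as support. The part of these cell types in the differences of Snai1, Fn1 and Cdh1 was not tested.

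The third comparison was between Day 3 cells with and without SGC0946, an inhibitor of the H3K79 methyltransferase DOT1L, with 1 library each and hence no replicate check. None of the 10 genes differed over 2-fold on the TPM + 1 scale, where 9.78% of 14038 genes did. The median was -0.06 over the 10 genes and 0.01 over all. As ratios of CPM with exact 95% counting intervals, Cdh1 was 1.90 times higher with SGC0946 (1.53 to 2.36), from 130 and 257 counts without and with it, and Cdh2 was at 0.694 of the level without it (0.624 to 0.772). Twist1 was 1.62 times higher (1.24 to 2.12) and Fn1 1.24 times higher (1.20 to 1.28), while Zeb2 was at 0.716 (0.553 to 0.923) and Snai2 at 0.783 (0.659 to 0.930). The intervals of Vim (0.956 to 1.04), Snai1 (0.981 to 1.40), Zeb1 (0.724 to 1.04) and Twist2 (0.730 to 1.39) held 1. No such difference can be set against a spread between replicates.

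**Figure D5:**
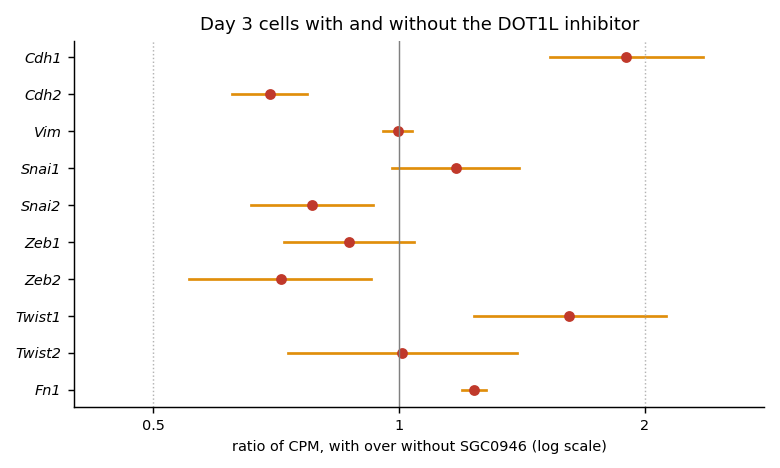
Ratio of CPM in Day 3 cells with over without SGC0946 on a log axis, for each gene. Points are ratios of 1 library to 1 library, lines are exact 95% intervals for counting error only, and dotted lines mark 2-fold. Cdh1, at 1.90, is the farthest above 1 and Cdh2, at 0.694, the farthest below.

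Of the 22 epithelial genes 4 were over 2-fold higher with SGC0946 and none lower, beside 9.78% of all genes past 2-fold in either direction. They were Esrp1 (17.7 against 3.59 TPM), Cldn3 (11.5 against 4.95), Epcam (55.9 against 26.2) and Cldn7 (13.9 against 6.28). Of 18 mesenchymal genes 1, Prrx1, was higher and none lower, with a median of -0.25. Markers of pluripotent cells moved as well, with 4 of 8 over 2-fold higher and Pou5f1 at 549 against 67.3 TPM. Of 8 trophoblast markers only 1, Cdx2, was over 2-fold lower, at 53.0 against 108 TPM, and none was higher. The sum of the trophoblast list was 4369 TPM with and 4435 TPM without SGC0946. The part of such cell types in the values of Cdh1 and Cdh2 was not tested.

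The sorted and the unsorted Day 3 libraries come from other library kits and gene lists, and are given side by side without a test. The genes of both lists held 70.9% to 79.5% of the TPM of the sorted libraries and over 99% of the others, so the TPM were also rescaled over these 28910 genes, a choice made after seeing the data. On that scale Cdh1 had a mean of 276 TPM in c-Kit+ and 409 TPM in c-Kit- cells, against 12.3 and 23.0 TPM in unsorted cells without and with SGC0946. Vim was at 94.0 and 86.8 TPM in the sorted groups, against 1595 and 1511 TPM, and Snai2 was at 1.04 and 0.675 TPM, against 66.0 and 50.8 TPM. Snai1 (29.8 and 74.6 TPM against 65.0 and 74.9 TPM) and Fn1 (404 and 170 TPM against 374 and 467 TPM) were closer. Cdh2 was at 8.31 and 4.34 TPM against 82.7 and 55.6 TPM, and Zeb1 at 2.46 and 3.6 TPM against 22.3 and 17.3 TPM. Zeb2 was at 2.78 and 2.06 TPM against 11.85 and 9.56 TPM, and Twist1 at 3.17 and 3.8 TPM against 25.4 and 40.3 TPM. Twist2 was at 2.77 and 12.4 TPM against 27.9 and 27.05 TPM. Unsorted cells thus had less Cdh1 and more Cdh2, Vim, Snai2, Zeb1, Zeb2, Twist1 and Twist2 than either sorted group. No sorted library had more Cdh2 than Cdh1. In the sorted cells the Snai2, Zeb and Twist values rest on few counts. The experiment, the kit and the treatment cannot be told apart here.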

How the data were processed

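Bulk RNA-seq of 11 samples was used, and no single-cell, chromatin accessibility or ChIP sample. The authors mapped reads with Bowtie2 and obtained expected counts per gene from RSEM (version 1.3.1 in the submitters' processing notes, another in the methods), and the deposited expected counts are not normalised. The deposited TPM were computed by RSEM from the same counts and the effective lengths. The strand setting is not given in the sources used here. The sorted Day 3 files list 50600 genes and the others 29267, and the methods name an mRNA kit where the labels of the latter name ribosome-depleted total RNA, so tests were run within an experiment. Symbols came from GENCODE M21.

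Expected counts were rounded and tested with the quasi-likelihood functions of edgeR 4.0.16 under R 4.3.3, after filterByExpr and TMM scaling, with only the 2 groups compared in each model. Genes were called at an unadjusted p under 0.05 with a fold over 2, the threshold of the methods. The procedure was tested on simulated data. Alternatives were RLE factors, other filters, DESeq2 1.42.0, adjusted p, effective length offsets, a replicate block and leaving out each library. Comparisons with 1 library used log2 of TPM + 1, with a pseudocount of 0.1, CPM and TMM as alternatives. Counting intervals are exact at 95%, the floor is 3 counts, and both cover counting error only, since no molecular identifiers are described. Sequence shared with other genes (at least 98% over 75 bases) was found with BLAST+ 2.17.0. Replicates were checked by chi-square and none were identical. Other steps used Python 3.11.15 with SciPy 1.17.1.

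All 10 genes are named. From each wider list, up to 4 genes with the largest change among those called with a mean of at least 5 TPM were taken for naming, and genes named beyond these, such as Epcam, Esrp1 and Kit, were chosen after their values were seen. The members and lists were chosen with earlier results of these data known.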

Additional observations from a re-analysis of the deposited data

How the results depend on the processing

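Of the 10 genes, the number called between c-Kit+ and c-Kit- cells was 2, and 2 to 3 with a library left out. Between BV+SC+ cells and EpiSCs it was 3, and 2 to 4 with a library left out, but 5 with no filter on low counts. Leaving out a BV+SC+, c-Kit+ or c-Kit- library leaves an arm with 1 library, which is then assumed to vary like the other group. Leaving out each library gave 2541 to 3114 genes called in the sorted cells and 4369 to 4696 in the other test, and a filter of at least 10 counts in every library gave 1708 in place of 2693 in the sorted cells, with fewer genes tested. The same replicate numbers occur in both groups of each test, and neither labels nor methods pair them. Deviations from the group means correlated at 0.11 in the sorted cells and at -0.03 and 0.00 in the other set. With the replicate block 2 and 3 of the 10 genes and 2693 and 4027 genes in all were called. Directions turned for Vim between the sorted cells (-0.18 to 0.83 with a library left out, lowest without c-Kit- replicate 2), and between BV+SC+ cells and EpiSCs for Zeb1 (-0.19 to 0.011, highest without BV+SC+ replicate 2) and Zeb2 (0.66 with effective length offsets, -0.27 to 0.70 with a library left out, highest without BV+SC+ replicate 2), none of which was called in either form. Requiring over 1 TPM in every library compared left 5 genes past 2-fold between EpiSCs and Day 3 with SGC0946 and 4 between that library and BV+SC+ cells, where 8 were counted in each, because genes at or under 1 TPM in any library compared are then removed. The cadherin balance differed by -2.08 to -0.86 between the sorted groups and by 1.20 to 2.27 between BV+SC+ cells and EpiSCs with a library left out. Depth limits Snai2, Zeb1, Zeb2, Twist1 and Twist2 in the sorted cells, and the Day 3 stage rests on single libraries.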
